A study of Mus musculus with 9 samples.

Results

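The cytosolic ribosomal protein genes encode the protein subunits of the 80S ribosome. They were taken from gene tables of mouse ovaries by symbol: Rpl or Rps followed by a number and an optional suffix, the stalk genes Rplp0, Rplp1 and Rplp2, and Rpsa. The rule found 90 of the 55487 rows. Of these, 43 were main proteins of the large subunit, 31 of the small subunit and 3 of the stalk. The other members were 7 second copies of a main gene (Rpl3l, Rpl7l1, Rpl10l, Rpl22l1, Rpl36al, Rpl39l and Rps27l) and 6 rows that GENCODE M21 annotates as pseudogenes (Rpl6l, Rpl32l, Rps3a2, Rps3a3, Rps4l and Rps12l1). The filter on low counts kept 88 members among 17747 genes. Rpl3l, known for striated muscle, had 1, 3 and 1 reads over the 3 libraries at days 8, 50 and 65, and Rps12l1 had none.

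All 9 libraries were of C57BL/6 ovary, and every mouse had the PIK3CA* gene knocked in, in oocytes alone; no other genotype is analysed here. The 3 groups differed by age, postnatal day 8, day 50 and day 65, with 3 libraries each, and the submitters' design text calls the samples tumors. PIK3CA encodes a catalytic subunit of phosphoinositide 3-kinase. The labels name neither a Cre nor a promoter behind the oocyte restriction. The labels do not say whether libraries of 1 age came from separate animals, so the p-values measure the spread between libraries. RNA was made into libraries with a poly(A) mRNA kit, and libraries held between 14116908 and 18868831 expected counts. Markers of granulosa cells and of oocytes, which the labelled tissue should hold, were present at all ages.

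The ribosome reads mRNA on its small subunit and joins amino acids on its large subunit, while the stalk recruits elongation factors. Each ribosome holds 1 copy of nearly every protein, and their mRNAs are among the most abundant in growing cells. Most of these mRNAs begin with a run of pyrimidines, the 5′ terminal oligopyrimidine or TOP motif, which places their translation under the kinase mTOR, a target of phosphoinositide 3-kinase signalling. In the ovary, growing oocytes store ribosomes for the embryo, and granulosa cells proliferate around them.

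The starts of 7 members are shown. Rpl13a, Rps27 and Rps6 carry the pyrimidine run for which the family is known, and Rpl10l and Rpl39l, shown with their parents Rpl10 and Rpl39, had the largest differences between ages. Each line covers 50 bases before and 20 bases from the RefSeq start (GRCm38.p6), on the strand of the gene, and capitals mark the longest run of at least 8 C or T that touched the 10 bases on either side of the start.
Rpl13a: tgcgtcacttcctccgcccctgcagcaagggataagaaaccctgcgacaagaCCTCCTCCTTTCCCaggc
Rps27: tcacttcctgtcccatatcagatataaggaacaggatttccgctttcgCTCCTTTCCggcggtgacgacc
Rps6: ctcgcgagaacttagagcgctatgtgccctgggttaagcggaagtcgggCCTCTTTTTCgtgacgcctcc
Rpl39: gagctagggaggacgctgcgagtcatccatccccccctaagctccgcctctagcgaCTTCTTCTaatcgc
Rpl39l: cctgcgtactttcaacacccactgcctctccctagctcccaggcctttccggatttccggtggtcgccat
Rpl10: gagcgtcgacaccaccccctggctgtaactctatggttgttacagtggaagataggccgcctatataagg
Rpl10l: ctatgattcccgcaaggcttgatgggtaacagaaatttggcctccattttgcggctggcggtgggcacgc
The windows lie at chr7:45128726-45128795 (minus strand) for Rpl13a, chr3:90213629-90213698 (minus) for Rps27, chr4:86857348-86857417 (minus) for Rps6, chrX:37085203-37085272 (minus) for Rpl39, chr16:10170178-10170247 (plus) for Rpl39l, chrX:74270766-74270835 (plus) for Rpl10 and chr12:66284382-66284451 (minus) for Rpl10l. A promoter was matched for 65 of the 90 members. Of these 65, 30 (46.2%) held such a run, against 15.8% of the 27025 gene symbols in the table. The run was 14 bases long in Rpl13a and 10 in Rps6, and none of this length touched the 10 bases on either side of the start in Rpl39l, Rpl10 and Rpl10l. At day 65 against day 50 the median log2 fold change was 2.03 over the 30 tested members with a run and 1.89 over the 34 without. It was -1.15 and -1.01 at day 50 against day 8, and 0.80 and 0.89 at day 65 against day 8.

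One library stood apart before any comparison. The 90 genes took 11.8% of the counts in day 8 replicate 1, but 4.60% and 6.09% in the other two day 8 libraries. In the same library mitochondrial genes took 4.53% of the counts, against 2.05% and 2.03%, and ribosomal RNA rows 8.34%, against 5.57% and 3.97%. Other coding genes under 1000 bases took 8.35% there, against 5.42% and 6.64%. The part of RNA quality or library making in this was not tested, and the main comparisons that use day 8 are given with and without this library.

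The 90 genes held 11.8%, 4.60% and 6.09% of all counts at day 8, 3.72%, 3.76% and 3.2% at day 50, and 13.3%, 10.9% and 10.3% at day 65. Every day 65 library was above every day 50 library. The means were 11.5 ± 1.60% at day 65 and 3.56 ± 0.312% at day 50 (SD, n = 3 each), a ratio of 3.23, with an exact two-sided permutation p of 0.1, the smallest that 3 against 3 libraries can give. The mean at day 8 was 7.503 ± 3.81% (SD, n = 3), above day 50 without overlap (exact p = 0.1) and overlapping with day 65 (exact p = 0.3). That overlap came from day 8 replicate 1: without it the difference, day 65 minus day 8, was 6.17 points in place of 4.01, with no overlap, and the difference of day 50 minus day 8 was -1.78 points in place of -3.94. On the TPM scale, which corrects for transcript length, 25.3%, 13.2% and 16.2% of the day 8 total belonged to members, 10.4%, 10.5% and 9.36% of the day 50 total, and 25.2%, 22.4% and 21.7% of the day 65 total. In bulk ovary, fewer cells with high ribosomal protein mRNA and less of it in each cell cannot be told apart. Markers of other cells moved too: 6 granulosa markers summed to between 497 and 623 TPM in day 8 libraries, 5144 and 5976 TPM in day 50 libraries, and 1344 and 1771 TPM in day 65 libraries. For 5 erythroid markers the sums in replicates 1, 2 and 3 were 2622, 3557 and 7608 TPM at day 8. They were 643, 997 and 1342 TPM at day 50 and 3044, 8319 and 10220 TPM at day 65. Within day 8 and within day 65, replicate 1 had the largest member share but the lowest erythroid sum. The 4 stroma markers summed to 499 to 839 TPM at day 8, 248 to 403 TPM at day 50 and 372 to 482 TPM at day 65. Their day 50 and day 65 ranges overlapped. Theca and surface epithelium markers took other patterns. For 4 theca markers the ranges were 31.7 to 46.8, 401 to 749 and 39.6 to 102 TPM. For 4 surface epithelium markers they were 431 to 1127, 479 to 666 and 19.1 to 131.8 TPM. The part of the cell makeup in the members' levels was not tested.

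**Figure D1:**
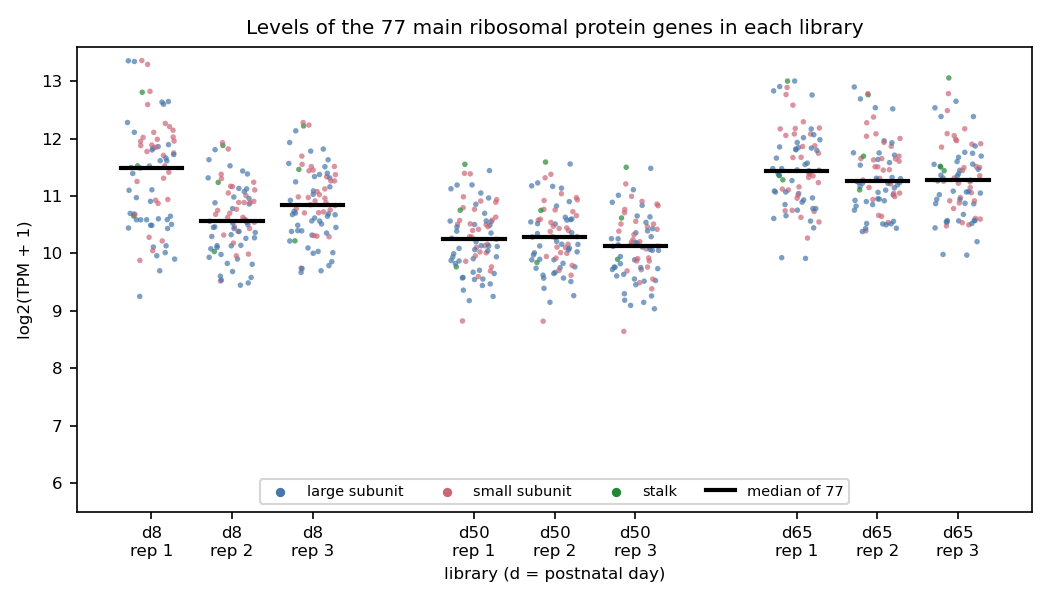
Level of each of the 77 main ribosomal protein genes in each library on the log2(TPM + 1) scale, coloured by subunit, with a black line at the median of the 77. The day 8 medians are 2885, 1507 and 1840 TPM, the day 50 medians 1213, 1246 and 1112 TPM and the day 65 medians 2775, 2437 and 2475 TPM.

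The levels per length of the 77 main genes spread widely. The highest was 17.3 times the lowest in day 8 replicate 1, and 5.59 to 8.52 times in the other 8 libraries. Rps24, a small-subunit protein, led all 3 day 8 libraries, and Rplp1, an acidic stalk protein, led all 3 day 50 libraries. Rpl41 led day 65 replicate 2 and Rplp1 led day 65 replicate 3. Rps24, Rplp1, Rpl13a, Rpl41 and Rps27 were among the 6 genes with the highest mean TPM. Of the 100 most abundant genes by TPM, 53 to 60 were members in day 8 libraries, 33 to 37 in day 50 libraries and 63 to 65 in day 65 libraries.

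Dividing the summed TPM of the large subunit by that of the small subunit gave 1.05, 1.16 and 1.15 in day 8 libraries, 1.21, 1.23 and 1.24 in day 50 libraries, and 1.30, 1.22 and 1.22 in day 65 libraries. Every day 50 and day 65 library was above every day 8 library (exact p = 0.1 for each). The day 65 and day 50 libraries overlapped (exact p = 0.8), with a mean difference of 0.016 that became -0.0093 without day 65 replicate 1.

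Nearly the whole family was higher at day 65 than at day 50. Of the 88 tested members 84 rose and none fell by edgeR's quasi-likelihood test with Benjamini-Hochberg adjusted p under 0.05, where 27.5% of all tested genes rose and 28.4% fell. The median log2 fold change was 2.01, a 4.04-fold difference, against -0.06 over all tested genes. In 86 members every day 65 library was above every day 50 library, as in 33.0% of all tested genes. The members not called were Rpl9, Rpl10l, Rpl32l and Rpl39l. With day 8 replicate 1 left out, which enters this comparison through the shared estimate of spread, 86 rose, where 29.9% of all genes rose and 30.1% fell.

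Among the most abundant genes, Rpl41, the shortest ribosomal protein, had 4004, 2929 and 2284 normalised CPM, counts scaled to library size, at day 65 and 497.0, 533 and 417 CPM at day 50. Its log2 fold change was 2.67 ± 0.58 (SE, edgeR adjusted p = 0.0034). Rpl13a, a large-subunit protein also known for silencing inflammatory mRNAs in human cells, had 5225, 3336 and 2818 CPM at day 65 and 629, 658 and 555 CPM at day 50 (log2 fold change 2.63 ± 0.56, edgeR adjusted p = 0.0030). All 3 day 65 libraries of both genes were several times above the day 50 libraries, and replicate 1 was the highest of the 3.
Rps24 had 3844, 2818 and 2819 CPM at day 65 and 654, 638 and 568 CPM at day 50 (log2 fold change 2.35 ± 0.51, edgeR adjusted p = 0.0034). Rps27, a zinc-finger protein of the small subunit, had 1908, 1295 and 1027 CPM at day 65 and 388, 396 and 290.2 CPM at day 50 (log2 fold change 1.98 ± 0.51, edgeR adjusted p = 0.0084). Rps24 and Rps27 also separated the 2 ages without overlap.

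The largest rise among main genes was that of Rpl36a, an X-linked large-subunit gene, with 1800, 968 and 1164 CPM at day 65 and 189, 192 and 171 CPM at day 50 (log2 fold change 2.83 ± 0.36, edgeR adjusted p = 1.6e-04). Rpl24, whose protein bridges the 2 subunits, had 2091, 1220 and 1171 CPM at day 65 and 235, 313 and 185 CPM at day 50 (log2 fold change 2.61 ± 0.34, edgeR adjusted p = 1.8e-04). Rpl36a and Rpl24 stayed higher at day 65 in every library, with fold changes of 7.13 and 6.12. Rpl6l and Rps3a3, annotated as pseudogenes, had larger log2 fold changes, 4.38 and 3.00, but lie at low levels. Rpl6l had 44.1, 7.24 and 13.6 TPM at day 65 and 0.84, 2.81 and 2.16 TPM at day 50, and 23.6% of the 50-base words in its transcript occur in no other gene. Reads from Rpl6 could be counted on Rpl6l, and the same holds for Rps3a3, with 34.9% unique words.

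The smallest rises among main genes were those of Rpl3 and Rps4x. Rpl3, near the peptidyl transferase centre, had 1442, 1570 and 1160 CPM at day 65 and 666, 693 and 624 CPM at day 50 (log2 fold change 1.07 ± 0.35, edgeR adjusted p = 0.024). Rps4x, an X-linked small-subunit gene, had 1137, 1206 and 1132 CPM at day 65 and 559, 559 and 525 CPM at day 50 (log2 fold change 1.08 ± 0.16, edgeR adjusted p = 4.0e-04). Both were higher at day 65 in all libraries but by about 2-fold in CPM, where the family's median was 4.04-fold. In TPM they differed less. Rpl3 had 971, 1332 and 1010 TPM at day 65 and 933, 953 and 902 TPM at day 50. Rps4x had 1231, 1486 and 1444 TPM at day 65 and 1122, 1097 and 1080 TPM at day 50. Rpl7l1, a relative of Rpl7, had 111, 136 and 121 CPM at day 65 and 98.2, 97.7 and 92.5 CPM at day 50 (log2 fold change 0.35 ± 0.14, edgeR adjusted p = 0.048). Its TPM ran the other way, at 38.3, 66.3 and 63.8 at day 65 and 97.8, 91.1 and 81.7 at day 50.

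All 3 stalk genes rose. Rplp0, the scaffold of the stalk, had 3140, 3037 and 2672 CPM at day 65 and 992, 1022 and 881 CPM at day 50 (log2 fold change 1.61 ± 0.29, edgeR adjusted p = 0.0010). Rplp1 had 4039, 2729 and 3279 CPM at day 65 and 715, 753 and 674 CPM at day 50 (log2 fold change 2.23 ± 0.39, edgeR adjusted p = 9.7e-04). Rplp2, the partner of Rplp1 in the stalk dimers, had a log2 fold change of 1.87 ± 0.31 (edgeR adjusted p = 6.4e-04). Each of them was higher in every day 65 library than in any day 50 library.
Rpsa, a small-subunit protein that is also known as the laminin receptor precursor, had 5449, 3633 and 3887 CPM at day 65 and 927, 933 and 851 CPM at day 50 (log2 fold change 2.26 ± 0.34, edgeR adjusted p = 4.0e-04). Rps6, the substrate of S6 kinase, had 2776, 2079 and 1892 CPM at day 65 and 628, 631 and 599 CPM at day 50 (log2 fold change 1.86 ± 0.38, edgeR adjusted p = 0.0021). Rpl5 and Rpl11, which with 5S rRNA bind the p53 inhibitor Mdm2 when ribosome assembly fails, differed in size. Rpl11 rose by 1.79 ± 0.39 on the log2 scale (edgeR adjusted p = 0.0031), and Rpl5 by 1.28 ± 0.50 (edgeR adjusted p = 0.0499). Rpl5 lost its call when any of the day 50 or day 65 libraries was left out, with adjusted p between 0.0573 and 0.129.

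**Figure D2:**
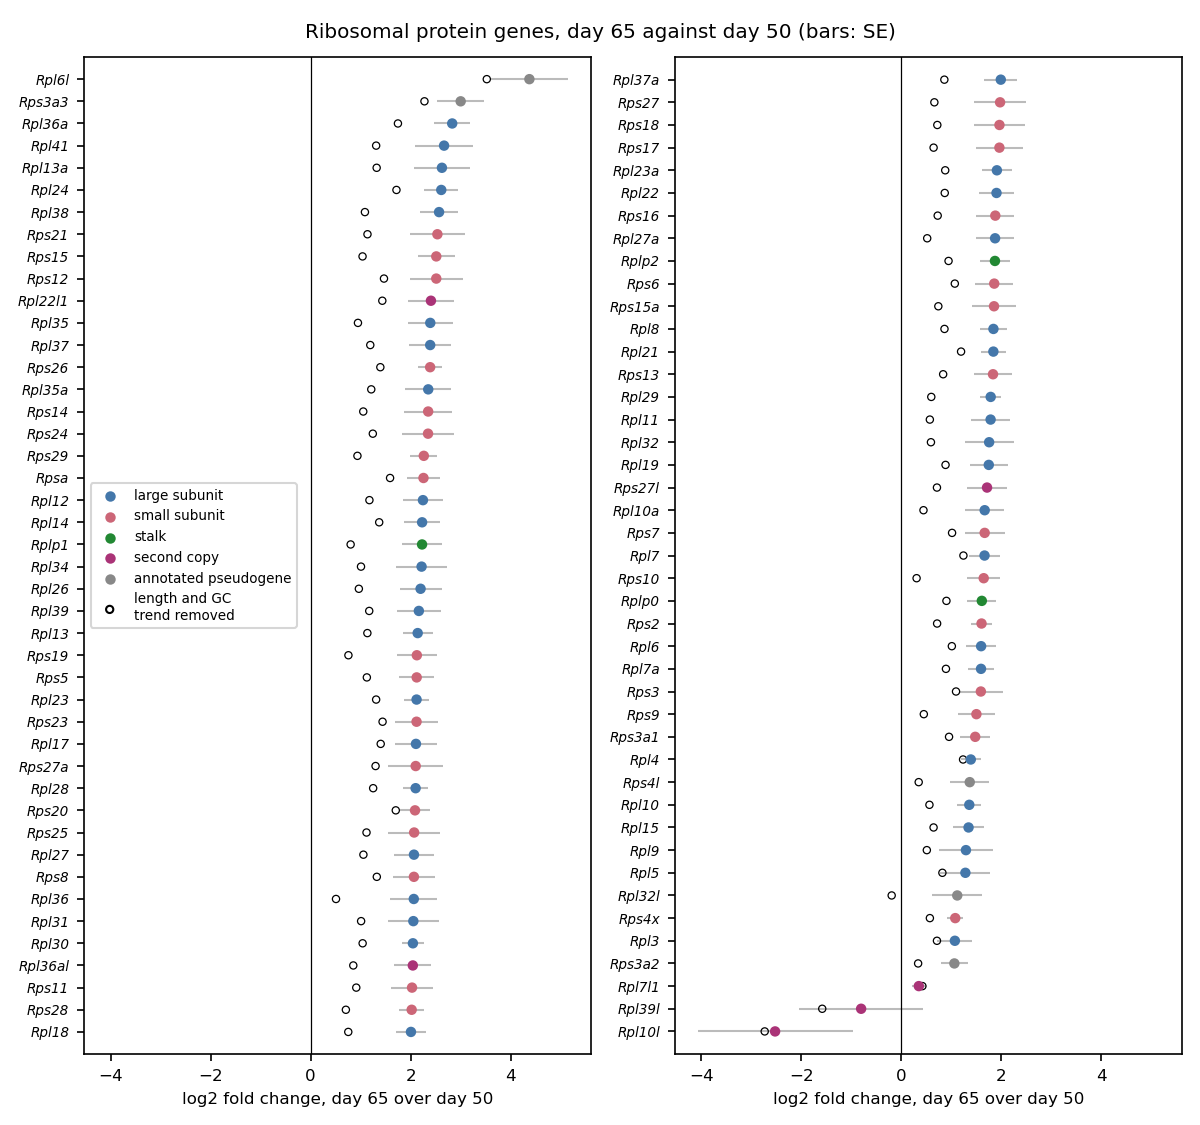
Log2 fold change of the tested members, 1 of them not shown, day 65 over day 50, sorted by size and coloured by class, with bars of 1 SE; open circles give the same after a length and GC trend was removed. All but Rpl10l and Rpl39l lie right of 0 as fitted, and the median after trend removal over all 88 is 0.95.

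Short genes outside the family were also higher at day 65 than at day 50. The 77 main genes had a median length of 627 bases, against 2246 for the other tested genes. Other genes in the members' length range, 488 to 993 bases, with at least 10 CPM numbered 905. Of these 710 rose (78.5%) and 29 fell at day 65 against day 50, and their median log2 fold change was 1.15, against 2.01 for the members. Within the 77 main genes the fold change was also larger for shorter ones, with r = -0.58 and rho = -0.54 between log2 fold change and log2 length, a description across genes that share libraries. After a smooth trend on length and GC content, fitted to non-members in each library, was removed, 72 of 88 members still rose and none fell, where 28.0% of all genes rose and 22.3% fell. Their median was then 0.95, against 0.27 for the 905 other short genes. The 12 members that lost the call included Rpl3, Rpl5, Rps27 and Rps4l.

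A ratio within each library gave the same contrast without a model. The members' counts over those of other coding genes under 1000 bases, a ratio added after the data were seen, came to 1.12, 1.06 and 0.973 at day 65 and 0.599, 0.609 and 0.600 at day 50, without overlap (exact p = 0.1, the smallest possible). At day 8 the ratio was 1.41, 0.849 and 0.918, again above every day 50 library (exact p = 0.1). The mean ratio at day 65 was 1.05 ± 0.0736 and at day 8 1.06 ± 0.309 (SD, n = 3 each), with overlap (exact p = 1.0), and the sign of that difference depended on single libraries. Without day 8 replicate 1 the mean difference, day 65 minus day 8, was 0.168.

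**Figure D3:**
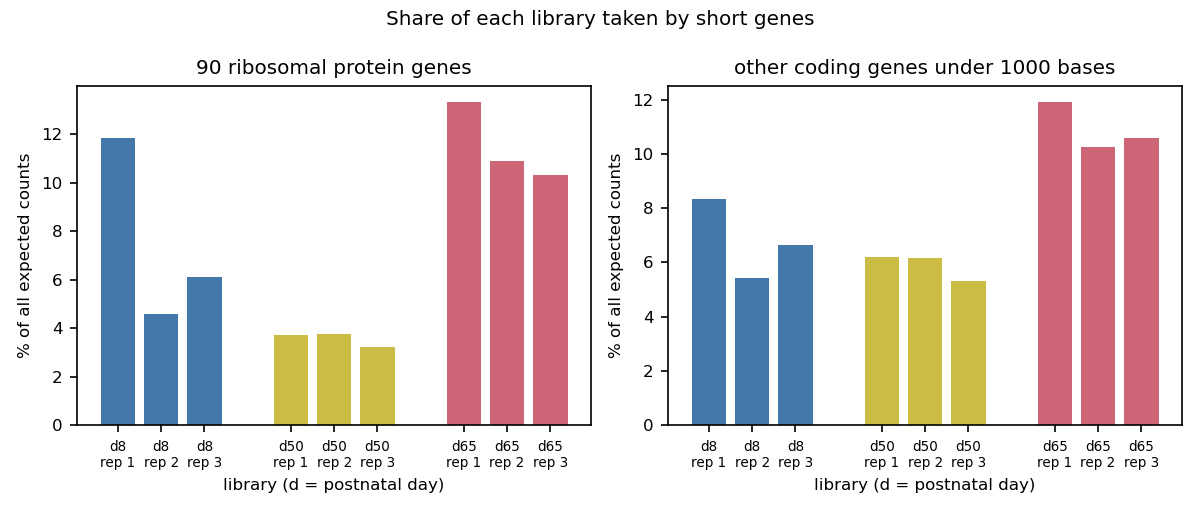
Share of all expected counts in each library taken by the 90 ribosomal protein genes (left) and by other coding genes under 1000 bases (right), bars coloured by age. The day 65 libraries lie at 10.3 to 13.3% on the left and 10.3 to 11.9% on the right, above all day 50 libraries, and day 8 replicate 1 stands above the other day 8 libraries in both and within the day 65 range on the left.

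At day 50 against day 8 the family was lower. Of the 88 members 54 fell and none rose, where 21.4% of all tested genes fell and 19.5% rose. The median log2 fold change was -1.10. In 68 members every day 50 library was below every day 8 library, as in 29.0% of all tested genes. The count rested on single libraries. When day 8 replicate 1 was left out 25 members fell and none rose, where 20.1% of all genes fell and 18.8% rose, and the median was then -0.47. It was 12, 10 and 4 members without day 50 replicate 1, 2 and 3, where 15.4%, 14.3% and 14.6% of all genes fell, and the members' median stayed between -1.10 and -1.02. It was 72 without day 8 replicate 2, where 19.9% of all genes fell.

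More small-subunit than large-subunit genes passed the test, 25 of 31 and 20 of 43, a difference that was not tested. These counts by subunit were not made without day 8 replicate 1. Rps12, a small-subunit protein, had 385, 411 and 358 CPM at day 50 and 3026, 614 and 815 CPM at day 8 (log2 fold change -1.95 ± 0.52, edgeR adjusted p = 0.014). Rpl9, of the large subunit, had 493, 505 and 391 CPM at day 50 and 3724, 698 and 944 CPM at day 8 (log2 fold change -1.95 ± 0.55, edgeR adjusted p = 0.017). In both genes day 8 replicate 1 was several times the other day 8 libraries, and without it the log2 fold changes were -0.89 and -0.83 (edgeR adjusted p = 0.0055 and 0.011).
Rps4x had 559, 559 and 525 CPM at day 50 and 915, 736 and 826 CPM at day 8 (log2 fold change -0.59 ± 0.16, edgeR adjusted p = 0.014), and was at -0.51 without day 8 replicate 1 (adjusted p = 0.012). It lost the call after the length and GC trend was removed (-0.35, adjusted p = 0.081). Rplp0 and Rplp1 fell, with log2 fold changes of -1.0033 and -1.10 (edgeR adjusted p = 0.017 and 0.040). Rplp2, at -0.64, did not pass the test (adjusted p = 0.11). Leaving out day 8 replicate 1, Rplp0 kept its call (-0.62, adjusted p = 0.015) and Rplp1 did not (-0.46, adjusted p = 0.094).

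Other short genes moved less at day 50. The 905 genes of the members' length range had a median log2 fold change of -0.30, with 222 lower and 114 higher. After the length and GC trend was removed, 54 members fell, 52 of them among the 54 called as fitted, with a median of -0.73, against -0.02 for the other short genes, and 24.5% of all genes fell while 20.3% rose. The trend was removed only in fits of all 9 libraries, here and in the other comparisons. How far these values rest on day 8 replicate 1 was therefore not tested.

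At day 65 against day 8 the picture was mixed. Of 88 members 41 rose, where 29.7% of all tested genes rose, and 3 fell, Rpl10l, Rpl39l and Rps4l, where 32.6% fell. Their median log2 fold change was 0.87, and that of the 905 other short genes was 0.83. In 37 members every day 65 library was above every day 8 library, as in 31.0% of all tested genes, and in 3 every one was below, as in 34.7%. In the fit without day 8 replicate 1, 83 members rose, where 32.2% of all genes rose and 32.6% fell, and the medians were 1.52 for the members and 1.12 for the other short genes.

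Rpl24 rose most among main genes, with 2091, 1220 and 1171 CPM at day 65 and 432, 219 and 275 CPM at day 8 (log2 fold change 2.28 ± 0.33, edgeR adjusted p = 2.1e-04). Rps26, Rps28 and Rps29, of the small subunit, rose by 1.88, 1.85 and 1.84 (edgeR adjusted p = 7.1e-05, 1.1e-04 and 2.0e-04). Rps26 had 2825, 1566 and 2112 CPM at day 65 and 641, 519 and 607 CPM at day 8. In CPM, day 8 replicate 1 was the highest of its age in all 4 genes. In TPM it was the lowest of its age for Rps26 (1242 against 1661 and 1840) and Rps29 (1634 against 1638 and 1753). With this library left out the log2 fold changes were 2.59 for Rpl24, 1.94 for Rps26, 2.07 for Rps28 and 2.08 for Rps29, all called. After the length and GC trend was removed, 36 members rose and 6 fell, where 31.7% and 29.8% of all genes did, at a median of 0.25, and Rpl24 kept a log2 fold change of 1.75.
Rpl9 and Rpl5 had negative log2 fold changes, -0.66 ± 0.53 and -0.47 ± 0.49, that did not pass the test (edgeR adjusted p = 0.30 and 0.43). Leaving out day 8 replicate 1, they were 0.46 and 0.56 (adjusted p = 0.082 and 0.028).

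**Figure D4:**
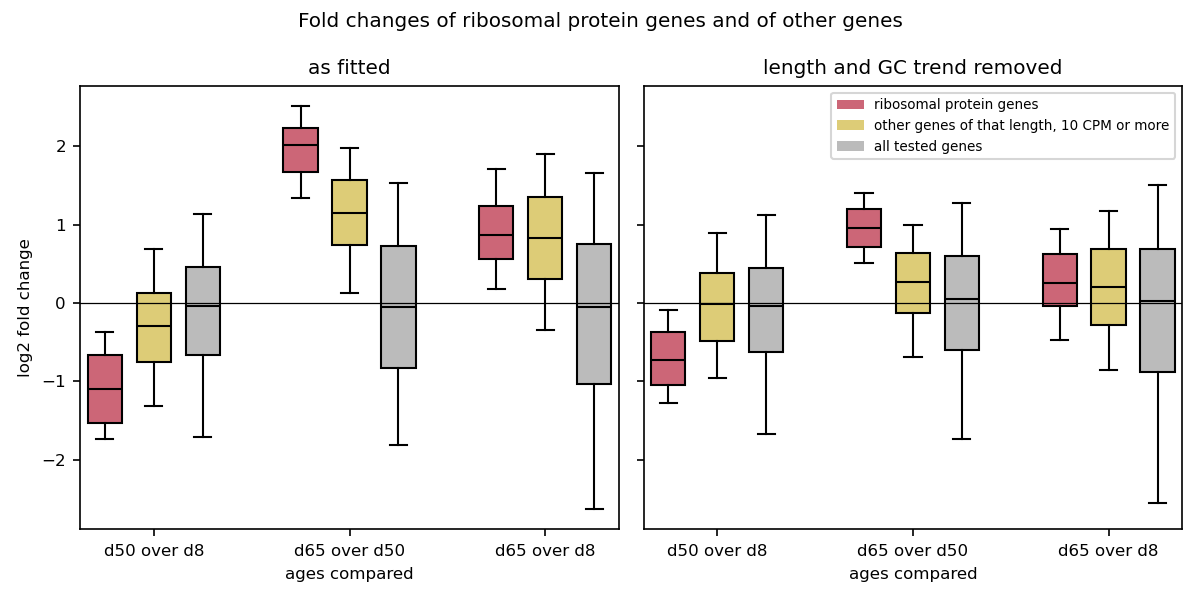
Log2 fold changes in the 3 comparisons for the ribosomal protein genes, for other genes of their length range with at least 10 CPM and for all tested genes; boxes give quartiles and the median, whiskers the 10th and 90th percentiles, left as fitted and right with the length and GC trend removed. At day 65 against day 50 the member median falls to 0.95, against 2.01 as fitted, but stays above the 0.27 of the other short genes, while at day 65 against day 8 the members and the other short genes lie together in both panels.

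Rpl10l, Rpl39l and Rps4l were the 3 members that fell at day 65 against day 8. In mouse, Rpl10l and Rpl39l are known as autosomal copies of X-linked genes that are used in the male germ line. Rpl10l, on chr12:66283379-66284401, had 12.8, 16.1 and 16.8 TPM at day 8, 0, 0 and 0.2 TPM at day 50 and 0 TPM in all 3 libraries at day 65. Its reads summed to 437, 2 and 0 at the 3 ages. Taking 3 reads over the 3 libraries as the floor, it was at least 164-fold lower at day 65 than at day 8. The exact 95% interval for counting error began lower, at 133-fold. At day 50 it was 69.9 to 2100-fold lower than at day 8 by a 95% interval that covers counting error only. The test called both falls (edgeR adjusted p = 2.5e-05 at day 65 and 5.2e-05 at day 50, against day 8), also without day 8 replicate 1, as it did for Rpl39l and Rps4l.
Its parent Rpl10, which joins the large subunit late in its assembly in yeast, had 1537, 1447 and 1649 TPM at day 8, 1437, 1537 and 1251 TPM at day 50 and 1999, 2072 and 1863 TPM at day 65. Rpl10l thus amounted to 0.987% of Rpl10 at day 8 on the TPM scale. At day 50 that share was 0.0053%.

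Rpl39l, on chr16:10170226-10174911, had 65.2, 28.4 and 36.5 TPM at day 8, 0.44, 0.53 and 0.39 TPM at day 50 and 0.45, 0 and 0.13 TPM at day 65. Its log2 fold change was -7.66 ± 0.83 at day 65 against day 8 and -6.85 ± 0.75 at day 50 against day 8 (edgeR adjusted p = 3.8e-05 and 8.1e-05). Rpl39, which lines the exit tunnel of the ribosome, had 1602, 764 and 925 TPM at day 8, 608, 613 and 523 TPM at day 50 and 1757, 1385 and 1178 TPM at day 65. Relative to its parent the copy stood at 3.91%, 0.078% and 0.012% at days 8, 50 and 65. All of its 50-base words are found in no other gene, and 92.4% of those of Rpl10l. How reads were split between copy and parent was not tested.

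Rps4l, a row on chromosome 6 annotated as a pseudogene, was also highest at day 8. It had 128, 158 and 177 TPM at day 8, 24.0, 20.2 and 26.4 TPM at day 50 and 61.3, 23.2 and 26.2 TPM at day 65. It fell at day 50 (log2 fold change -2.90 ± 0.41, edgeR adjusted p = 3.7e-04) and at day 65 (-1.53 ± 0.38, adjusted p = 0.0059), both against day 8. It was 10.4% of Rps4x at day 8 and 2.14% at day 50, and 85.1% of its 50-base words are unique. At day 65 against day 50 it was called higher (log2 fold change 1.37, adjusted p = 0.014) with replicate 1 well above the other two day 65 libraries, and it lost the call after the length and GC trend was removed (0.35, adjusted p = 0.40).
Oocyte markers were, like these 3 copies, highest at day 8, and they were lower at day 65 than at day 50, where Rps4l was higher. Gdf9, Bmp15, Zp1, Zp2, Zp3, Ddx4, Figla and Ooep summed to 1606 to 2970 TPM in day 8 libraries, 80.7 to 119 TPM in day 50 libraries and 24.5 to 60.9 TPM in day 65 libraries, with none of the 8 at 0 in all libraries. Day 8 replicate 1 had the lowest oocyte sum of its age, and on the TPM scale also the lowest level of Rpl10l and Rps4l but the highest of Rpl39l. The 4 stroma markers were higher in every day 8 library (499 to 839 TPM) than in any later library (248 to 482 TPM). The part of the oocyte share, or of other cells, in these results was not tested.

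**Figure D5:**
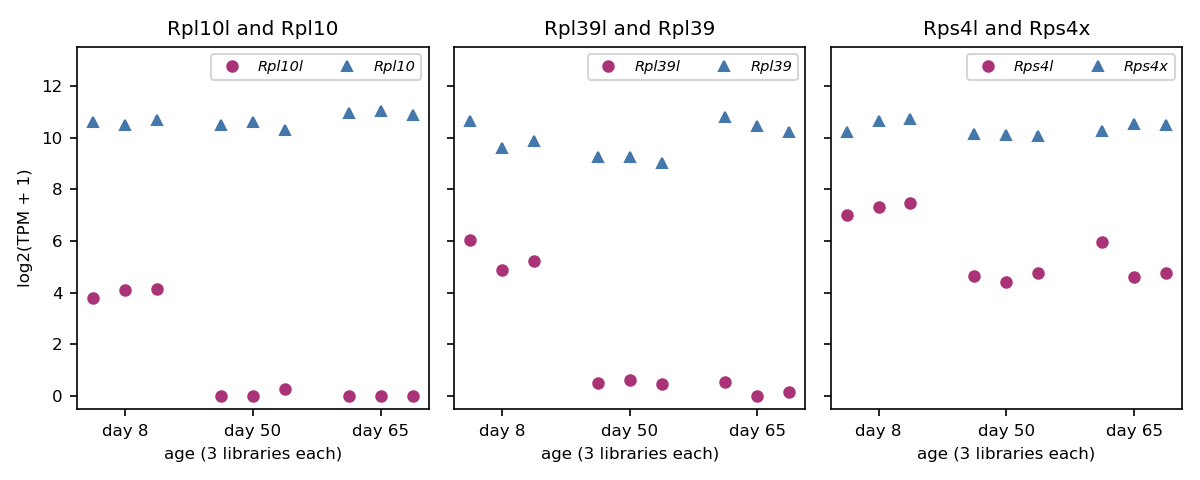
Levels of Rpl10l, Rpl39l and Rps4l (circles) and of their X-linked parents Rpl10, Rpl39 and Rps4x (triangles) in each library on the log2(TPM + 1) scale, 3 libraries an age. The copies are highest at day 8 and later lie near 0 (Rpl10l, Rpl39l) or lower than at day 8 (Rps4l), while the parents stay between 523 and 2072 TPM.

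Rpl36al, Rpl22l1 and Rps27l rose with the family at day 65 against day 50. Rpl36al, an autosomal copy of Rpl36a, had 1197, 933 and 1046 TPM at day 65, 461, 471 and 463 TPM at day 50 and 830, 459 and 583 TPM at day 8. Rpl36al rose by 2.04 ± 0.37 on the log2 scale at day 65 against day 50 (edgeR adjusted p = 0.0012). As a share of Rpl36a it came to 39.2%, 59.0% and 34.6% at days 8, 50 and 65. Rpl22l1, the paralogue of Rpl22, had 349, 338 and 292 TPM at day 65, 116, 114 and 85.4 TPM at day 50 and 424, 177 and 211 TPM at day 8. Rpl22l1 was 25.4%, 16.5% and 21.3% of Rpl22 at days 8, 50 and 65, so this pair leaned the other way at day 50.
Rps27l, a p53-induced copy of Rps27 in human cells, was 3.84%, 8.08% and 7.03% of Rps27 at days 8, 50 and 65. Rps27l rose by 1.72 ± 0.40 at day 65 against day 50 (edgeR adjusted p = 0.0052) and did not pass the test at day 50 against day 8 (-0.51 ± 0.40, adjusted p = 0.34).

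Which members moved apart from the rest was asked by scaling each library to the summed counts of the 90 genes, a scaling chosen after the data were seen. With all 9 libraries few members were called apart from the sum. The SE was wide in this fit, so few calls do not show that the members moved together. For Rps4x at day 65 against day 50 it was 0.424, against 0.163 with TMM scaling. No member was higher and 3 were lower at day 50 against day 8, where 24.5% of all genes were higher and 6.1% lower. For day 65 against day 50 it was 1 and 4, where 1.78% and 77% of all genes were, and for day 65 against day 8 it was 2 and 6, where 5.27% and 50.0% were.
Day 8 replicate 1 differed in composition within the family too. Its highest main gene by TPM was 17.3 times the lowest, against 5.59 and 6.11 times in the other day 8 libraries. When this library was left out, 3 members were higher and 3 lower at day 50 against day 8, where 26.4% and 9.05% of all genes were. For day 65 against day 50 it was then 16 and 16, where 2.45% and 81.9% of all genes were, and for day 65 against day 8 it was 14 and 13, where 5.92% and 70.0% were. Day 65 against day 50 holds no day 8 library, and the added calls there came with smaller SEs through the shared estimate of spread. Rpl3 stood at -0.87 in both fits, with an SE of 0.393 with day 8 replicate 1 and 0.185 without it.
Relative to the sum and without day 8 replicate 1, the log2 difference, day 65 over day 50, was -0.87 for Rpl3 (edgeR adjusted p = 9.9e-04), -0.85 for Rps4x (adjusted p = 0.0015) and -0.63 for Rpl9 (adjusted p = 0.018). Rpl36a (0.84, adjusted p = 8.5e-04), Rpl41 (0.69, adjusted p = 0.0017) and Rpl24 (0.63, adjusted p = 0.0093) were higher. As shares of the summed TPM of the 77 main genes, a per-length scale that differs from the scaling to summed counts, Rpl3 held 0.389%, 0.599% and 0.470% at day 65 and 0.910%, 0.914% and 0.973% at day 50. On the same TPM scale Rpl36a held 1.44%, 1.14% and 1.44% at day 65 and 0.794%, 0.769% and 0.810% at day 50. Of that TPM sum Rpl9 held 0.557%, 1.01% and 0.707% at day 65, 1.28%, 1.26% and 1.15% at day 50 and 2.55%, 1.51% and 1.59% at day 8.

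Fau and Rack1, ribosome components outside the symbol rule, followed the family at day 65 against day 50. Fau, which encodes the small-subunit protein eS30 fused to a ubiquitin-like domain, had 2171, 2159 and 1973 TPM at day 65, 1011, 1043 and 892 TPM at day 50 and 3059, 1256 and 1628 TPM at day 8. Fau rose by 2.03 ± 0.41 on the log2 scale at day 65 against day 50 (edgeR adjusted p = 0.0021). Rack1, a scaffold on the small subunit, rose by 1.00 ± 0.36 (adjusted p = 0.038). After the length and GC trend was removed, Rack1 stood at 0.59 (adjusted p = 0.10), and Fau kept its call at 0.66 (adjusted p = 0.033).

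Of 14 elongation factors and other mRNAs of the TOP class, 9 rose and none fell at day 65 against day 50. Eef1g, of the elongation factor 1 complex, rose by 1.09 ± 0.18 (edgeR adjusted p = 7.2e-04), Eef1d of the same complex by 1.19 ± 0.21 (adjusted p = 0.0010) and Npm1, a nucleolar chaperone, by 1.03 ± 0.21 (adjusted p = 0.0021). Eef1a1, which carries aminoacyl-tRNA to the ribosome, and Eef2, the translocase, did not pass the test (log2 fold change 0.49 and -0.36, adjusted p = 0.24 and 0.16). After the length and GC trend was removed, 9 of these 14 rose, Eef1g and Npm1 among them, but Eef1d lost its call (0.19, edgeR adjusted p = 0.235). Of 14 initiation factors 5 rose and 3 fell as fitted, shares not far from the 27.5% and 28.4% of all genes, and the median was 0.29. Eif5a, which carries hypusine and helps translate difficult peptides, rose by 1.25 ± 0.15 (adjusted p = 1.3e-04), while Eif3a, the largest subunit of eIF3, had a log2 fold change of -0.78 ± 0.18 (adjusted p = 0.0037) at a length of 4834 bases. After the length and GC trend was removed none of the 14 fell, and Eif3a stood at 0.0925 (adjusted p = 0.62).
All 8 host genes of small nucleolar RNAs rose at day 65 against day 50; their median log2 fold change was 2.15 and their median length 562 bases. Several of these are TOP RNAs like the members. Gas5 had a log2 fold change of 2.09 ± 0.34 (edgeR adjusted p = 0.000685) and Snhg8 one of 2.87 ± 0.35 (adjusted p = 1.6e-04), and after the length and GC trend was removed all 8 still rose, at a median of 1.15.

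Of 30 ribosome assembly genes, 20 rose and 1, Rrs1, fell at day 65 against day 50, with a median of 0.55. Fbl, the methyltransferase of box C/D particles, rose by 1.45 ± 0.13 (edgeR adjusted p = 3.1e-05), Nop56 of the same particles by 1.92 ± 0.21 (adjusted p = 8.8e-05) and Nop16 by 1.62 ± 0.18 (adjusted p = 8.4e-05). Of 14 RNA polymerase I genes, 5 rose, among them Znrd1 (log2 fold change 1.92 ± 0.18, adjusted p = 3.9e-05), and 1 fell. That one was Polr1a, the largest subunit (log2 fold change -0.73 ± 0.15, adjusted p = 0.0026), which lost the call after the trend was removed (-0.16, adjusted p = 0.31). These counts, and those of the regulators that follow, are to be read against the 27.5% and 28.4% of all genes that rose and fell. Among 12 regulators of ribosomal protein synthesis, 6 rose and 3 fell. Rps6kb2, an S6 kinase, rose by 1.64 ± 0.15 (adjusted p = 3.7e-05), and Mtor, the kinase upstream of S6 kinase, fell, with a log2 fold change of -1.03 ± 0.12 (adjusted p = 1.2e-04) at a length of 6220 bases. After the trend was removed Mtor stood at -0.28 (adjusted p = 0.085).

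The 5 genes outside the family whose levels were most like the summed TPM of the members, among 9469 with at least 10 TPM, were ranked by Pearson r of log2(TPM + 1) over the 9 libraries. Snrpd2, a core protein of spliceosomal particles, had r = 0.995, Ss18l2 r = 0.992 and Psmg4, a proteasome assembly chaperone, r = 0.990. The fourth was the pseudogene Tpt1-ps3 and the fifth a predicted pseudogene. All 9 points share libraries and depth with the members.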

How the data were processed

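Gene tables for 9 libraries held, per the file headers, RSEM's expected counts, TPM, FPKM and effective lengths as the authors deposited them. The aligner is named by none of these sources, and the submitters' processing notes name GRCm38 and mm10. FPKM were not used. Expected counts were rounded. The members, lists and comparisons were chosen with earlier results of these data known. edgeR 4.0.16 (TMM scaling, filterByExpr, robust quasi-likelihood test, 1 term per age, all 9 libraries) was run on 17747 genes, and calls are at an adjusted p under 0.05. Normalised CPM use TMM library sizes. Each SE of an edgeR log2 fold change was worked back from the test, as its absolute value over the square root of the F statistic. Length and GC trends were fitted per library with mgcv 1.9.3 on non-members. Alternatives were RLE and library-size scaling, scaling without ribosomal protein, mitochondrial and rRNA rows, no filter, DESeq2 1.42.0, limma 3.58.1 on log2(TPM + 1), 2-age fits, a replicate block and leaving out each library. Genes were named by rules: the 6 highest by TPM, the 5 largest changes each way per comparison, calls against the majority, stalk genes and Rpsa, second copies with parents, Rps6, Rpl5 and Rpl11, and up to 4 called genes of each pathway list. Eef1a1, Eef2, Rrs1 and Polr1a were named after their values were seen. Gene models come from GENCODE M21 and promoters from RefSeq (GRCm38.p6). The fit was tested on simulated counts. Sequence identity to other genes was counted in 50-base words. Reads without molecular identifiers are not independent molecules, so intervals and floors cover counting error only. Depth was similar in all libraries, and precision was limited by 3 libraries an age. Some genes that the naming rules pick are not reported here.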

Additional observations from a re-analysis of the deposited data

How the results depend on the processing

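Of the 88 members, the count lower at day 50 against day 8 was 54 and became 18 without the low-count filter and 4 to 72 when 1 library was left out, while none was higher. The count higher at day 65 against day 50 was 84, and 80 to 86 with 1 library left out. limma on log2(TPM + 1) called 1 member lower there, Rpl7l1. At day 65 against day 8, 41 were higher (28 to 83) and 3 lower (3 in each fit without 1 library), but 6 were lower with limma on TPM, 5 after a length trend and 6 after a length and GC trend were removed. Relative to the members' sum, leaving out 1 library gave 0 to 3 higher and 3 lower at day 50 against day 8, 0 to 16 and 2 to 16 at day 65 against day 50, and 1 to 14 and 3 to 13 at day 65 against day 8.

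The share of counts differed by -5.40 to -1.78 points at day 50 against day 8, 7.05 to 8.55 at day 65 against day 50 and 2.55 to 6.17 at day 65 against day 8 with 1 library left out. The ratio to other short genes differed by -0.564 to -0.281, 0.415 to 0.488 and -0.115 to 0.168 (0.168 without day 8 replicate 1, 0.030 without day 65 replicate 3). The large over small subunit ratio differed by 0.0768 to 0.129, -0.0093 to 0.0302 and 0.0932 to 0.145.

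limma on TPM moved the median of all genes by 0.14 at day 50 against day 8, -0.51 at day 65 against day 50 and -0.45 at day 65 against day 8, and scaling by library size alone by -0.26 and -0.28 in the last 2. Relative to all genes the members' median at day 65 against day 50 was 1.70 with limma on TPM, 2.05 by library size and 2.07 by edgeR with TMM. limma on TPM called 1702 of all genes higher and 8326 lower at day 65 against day 50, against 4883 and 5032 by edgeR, and 2442 higher, against 5267, at day 65 against day 8.

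Signs turned for some named genes; the cause was not tested. With limma on TPM these were Rpl7l1 (0.0899 at day 50 against day 8, -0.71 at day 65 against day 50, -0.62 at day 65 against day 8), and at day 65 against day 8 Rpl3 (-0.44), Rps27 (-0.11) and Rps4x (-0.0878). With the length trend removed they were Rps27l at day 50 against day 8 (0.0007), and at day 65 against day 8 Rpl3 (-0.22), Rps24 (-0.0368), Rps27 (-0.37) and Rps4x (-0.0475). With length and GC removed they were Rpl10 (0.0086) and Rps27l (0.15) at day 50 against day 8, and Rpl3 (-0.23), Rpl11 (-0.0299), Rplp0 (-0.0732) and Rps27 (-0.38) at day 65 against day 8. With no filter Rpl7l1 was 0.0355 at day 50 against day 8, and by library size alone Rpl3 was -0.17 at day 65 against day 8. When 1 library was left out, Rpl7l1 ranged over -0.11 to 0.0651 and Rps27l over -0.78 to 0.26 at day 50 against day 8, and Rpl3 over -0.19 to 0.65, Rpl5 over -0.82 to 0.56, Rpl9 over -1.01 to 0.46 and Rps27 over -0.0142 to 1.26 at day 65 against day 8; the highest of each was without day 8 replicate 1. Over the named genes and comparisons, 1442 values kept their direction and call, 175 lost and 44 gained a call, and 28 changed sign.

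Replicate numbers did not pair the libraries: correlations of same-numbered deviations lay between -0.043 and 0.052. With a replicate block 49 members fell at day 50 against day 8, 84 rose at day 65 against day 50, and 57 rose and 3 fell at day 65 against day 8.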
